A study of Homo sapiens with 2 samples.

Results

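The proteasome genes were examined in the RNA-seq read counts of Ramos cells and Ramos640 cells. They were taken as every row of the count table whose name begins with PSMA to PSMG followed by a digit, which gave 91 of 37122 rows. Of these, 48 were genes of the proteasome and its assembly, 41 were rows of their pseudogenes and 1 was the antisense RNA PSMD6-AS2. The remaining row, PSMC3IP, is a factor of meiotic recombination and not a gene of the proteasome. Ramos is a human Burkitt's lymphoma (BL) line of B-cell origin, and Ramos640 was derived from it by selection for resistance to rituximab, an antibody to CD20, acting through complement-dependent cytotoxicity (CDC). Both lines grew in RPMI 1640 medium with 10% fetal bovine serum, to which penicillin/streptomycin was added at 1%. Resistance was maintained in Ramos640 cells alone by rituximab and 20% normal human serum every 21 days (the rituximab concentration is 640 μg/mL in the paper but 640 mg/mL in the sample labels). RNA from 3 passages was pooled for each line and sequenced as 1 library per line, so no difference has a replicate check and no p-value is given. In bulk RNA, a difference in all cells and one in part of the cells cannot be told apart. The table shows 38030090 reads for Ramos and 30871826 for Ramos640.

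The proteasome degrades proteins that carry a ubiquitin chain. Its core particle is a barrel of alpha rings outside and beta rings inside, and the subunits PSMB5, PSMB6 and PSMB7 carry the proteolytic sites. The regulatory particle caps the barrel, where a ring of ATPases (the PSMC genes) unfolds the substrate and non-ATPase subunits (most PSMD genes) bind ubiquitin and remove it. In lymphoid cells and under interferon, PSMB8, PSMB9 and PSMB10 replace the constitutive catalytic subunits to give the immunoproteasome, which is known for making peptides for MHC class I.

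Several proteasome genes have intronless copies elsewhere in the genome that are near-identical to the transcript, and part of the gene's signal may lie on them. A stretch of 60 coding bases is shown for the gene with the closest copy, PSMC1, an ATPase (chr14:90735741-90735800, plus strand, GRCh37), and for its pseudogene PSMC1P1 (chr3:68685737-68685796, plus strand), because over 1320 compared bases of coding sequence they were 99.9% identical and differed at only 1 base. That base is in capitals.
PSMC1: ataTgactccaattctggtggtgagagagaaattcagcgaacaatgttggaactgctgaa
PSMC1P1: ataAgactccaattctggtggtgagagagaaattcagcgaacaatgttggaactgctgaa
The same is shown for PSME2, a subunit of the interferon-inducible activator (chr14:24612636-24612695, minus strand), and the pseudogenes of PSME2 with the most reads, namely PSME2P1 (chr5:97549748-97549807), PSME2P2 (chr13:49345888-49345947), PSME2P3 (chr4:159928910-159928969) and PSME2P6 (chr10:22514879-22514938), all on the plus strand. Capitals mark the 10 positions at which any of these copies differs from the gene or from another copy.
PSME2: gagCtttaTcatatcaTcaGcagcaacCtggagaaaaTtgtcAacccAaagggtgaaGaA
PSME2P1: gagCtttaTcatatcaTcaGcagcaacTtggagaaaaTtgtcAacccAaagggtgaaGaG
PSME2P2: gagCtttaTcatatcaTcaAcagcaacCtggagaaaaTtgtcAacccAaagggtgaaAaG
PSME2P3: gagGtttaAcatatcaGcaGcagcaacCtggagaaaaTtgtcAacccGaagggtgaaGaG
PSME2P6: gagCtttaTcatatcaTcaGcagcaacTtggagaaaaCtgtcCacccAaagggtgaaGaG
In this stretch the copies differed from PSME2 at 2 bases for PSME2P1, 3 for PSME2P2, 5 for PSME2P3 and 4 for PSME2P6. It was chosen as the gap-free stretch within an exon with the most differences from the gene, summed over these copies. Over all aligned coding bases, PSME2P1 differed at 27 of 717, PSME2P2 at 25 of 699, PSME2P3 at 45 of 713 and PSME2P6 at 11 of 327.

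Normalized read counts were obtained with median-of-ratios size factors (1.14 for Ramos and 0.876 for Ramos640), and each log2 fold change compares Ramos640 with Ramos after 1 was added to both normalized counts. Intervals are exact 95% intervals (Clopper-Pearson) from the split of a row's reads between the libraries, and cover counting error only. A gene counted as past the fold when it differed by more than 1.5-fold, which is 0.58 on the log2 scale. Of the 91 rows, 82 had at least 10 reads in both libraries together, 9 did not, and 3 of those had no reads.

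Most proteasome genes had a similar normalized level in both libraries. Of the 48 genes, 47 had at least 10 reads and all of these had at least 100. PSMB11, the catalytic subunit of the thymoproteasome, had no reads in either library. A zero count is compatible with up to 3 reads, or 0.0789 CPM (reads scaled to a common library total) in Ramos and 0.0972 CPM in Ramos640. Past the fold, 2 genes were higher in Ramos640 (4.26%) and 1 was lower (2.13%). Among all 13677 genes with at least 100 reads, 9.94% were past the fold and higher, and 12.6% were past it and lower. The 47 genes held 308879 reads in Ramos and 267395 in Ramos640, which was 0.812% and 0.866% of the libraries. Their median log2 fold change was 0.11, while that of all genes tested was -0.015. The change was positive for 30 and negative for 17, and the counting interval lay above 0 for 25, below 0 for 13 and held 0 for 9. Scaled to total counts instead, which moves the median of all genes by -0.080, the split was 25 positive and 22 negative and the median was 0.033.

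**Figure D1:**
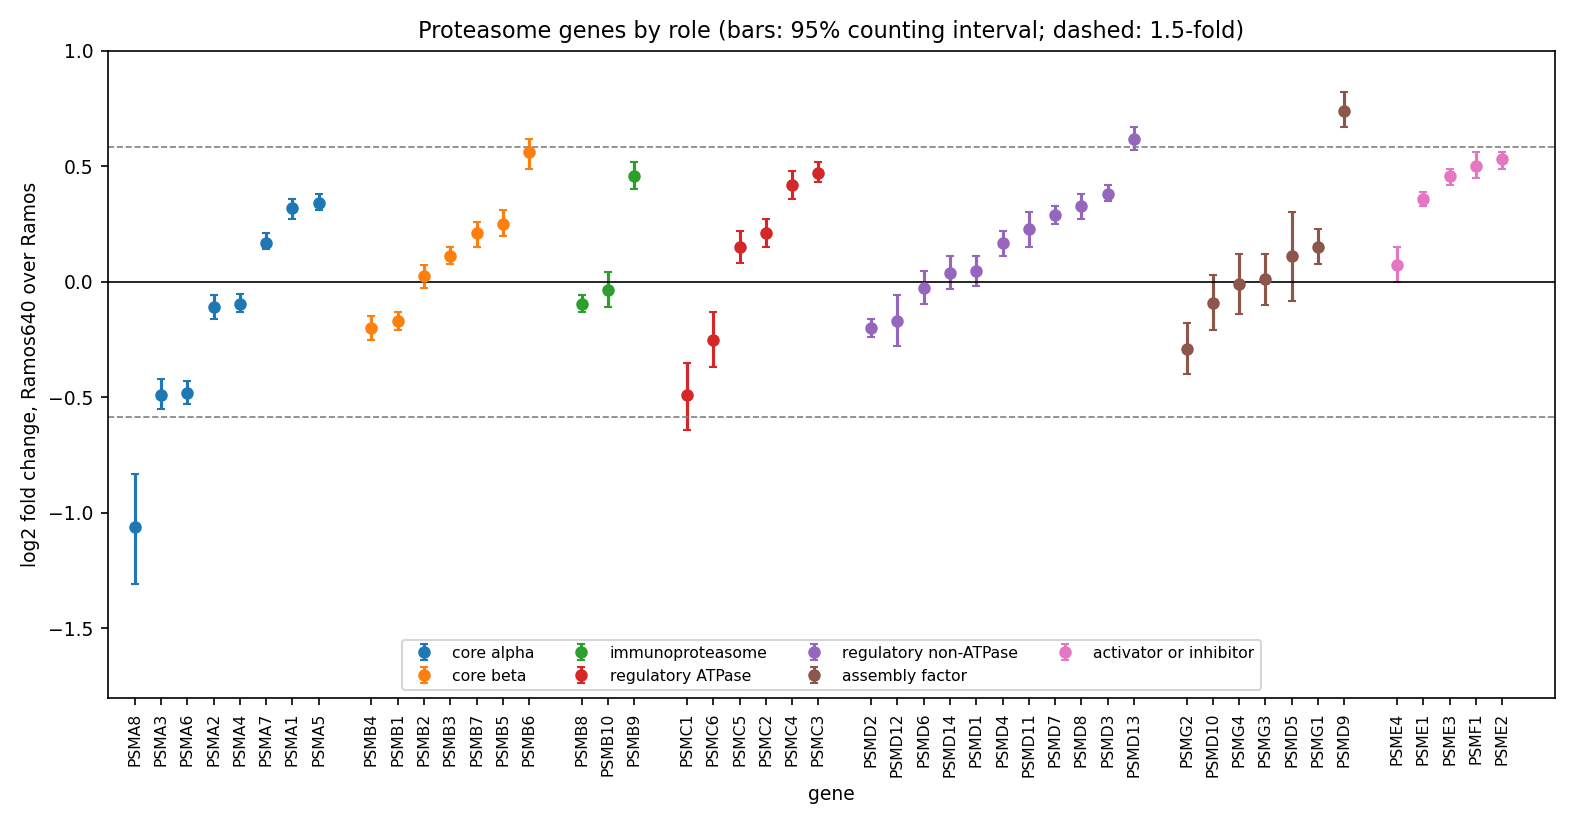
Log2 fold change of Ramos640 over Ramos (vertical axis) for the 47 proteasome genes with reads, grouped by role and ordered by value within each role. Bars are 95% counting intervals for 1 library per line, and dashed lines mark 1.5-fold; PSMA8 lies below the lower line, PSMD9 and PSMD13 lie above the upper line, and all 5 activator and inhibitor genes lie above 0 (PSME4 is at -0.0060 when scaled to total counts).

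The alpha subunits, which form the outer rings and the gate of the core, had a median log2 fold change of -0.10, with 3 genes positive and 5 negative. PSMA3 had 5105 reads in Ramos and 2797 in Ramos640, and its log2 change was -0.49 (-0.55 to -0.42). PSMA6 had 10060 and 5541 reads, a change of -0.48 (-0.53 to -0.43). Both were lower in Ramos640 but within the fold, and with the trend over GC content removed (described further on) PSMA3 changed by -0.18 and PSMA6 by -0.19. PSMA5 was the highest of the group, with 11880 reads in Ramos and 11582 in Ramos640 and a change of 0.34 (0.31 to 0.38). PSMA1 (0.32) and PSMA7 (0.17) were also positive, while PSMA2 (-0.11) and PSMA4 (-0.094) were slightly negative and turned positive with the GC trend removed (0.13 and 0.088).

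Of the proteasome genes taken by the rule on names, PSMA8, an alpha subunit known from testis, was the lowest relative to Ramos. Its reads numbered 539 in Ramos and 198 in Ramos640, a log2 change of -1.06 (-1.31 to -0.83), or 0.480 of the Ramos level. Per length of the canonical transcript it was also the lowest alpha subunit in level, at 7.90 RPKM (reads scaled to transcript length and to the library total) in Ramos and 3.58 in Ramos640, where PSMA7 had 319 and 340. PSMA8 lies on chr18:23713816-23773319. An intron of PSMA8 holds the pseudogene DHFRP1 on the opposite strand (chr18:23750690-23751248), which shares 0 bases with the 7 exons of PSMA8. DHFRP1 had 7719 reads in Ramos and 3398 in Ramos640, and its log2 change was -0.80. The use of strand in counting is not given in the sources used here, and the part of DHFRP1 in the PSMA8 count was not tested. The nearest gene before PSMA8, SS18, changed by -0.51 (-0.61 to -0.41) and the nearest after it, TAF4B, by -0.14 (-0.27 to -0.015).

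The constitutive beta subunits had a median log2 fold change of 0.11, with 5 of 7 positive and none past the fold. PSMB6, which carries the caspase-like site, had 3654 reads in Ramos and 4133 in Ramos640, and its change was 0.56 (0.49 to 0.62), just inside the fold. PSMB5, the chymotrypsin-like subunit, had 5795 and 5300 reads, a change of 0.25 (0.20 to 0.31). PSMB7, the trypsin-like subunit, had 6424 and 5688 reads, a change of 0.21 (0.15 to 0.26). All 3 catalytic genes were thus higher in Ramos640 after scaling. The structural subunits were PSMB3 (0.11), PSMB2 (0.023), PSMB1 (-0.17) and PSMB4, the lowest of the group, with 9583 and 6405 reads and a change of -0.20 (-0.25 to -0.15). Per length of the canonical transcript, PSMB3 had the highest level of the beta subunits (426 RPKM in Ramos and 436 in Ramos640) and PSMB2 the lowest (43.1 and 41.4).

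The immunoproteasome subunits differed in direction. PSMB8 had 13981 reads in Ramos and 10050 in Ramos640, and its log2 change was -0.095 (-0.13 to -0.058). PSMB10 had 3079 and 2309 reads, a change of -0.034 (-0.11 to 0.044), an interval that holds 0. PSMB9 had 4139 and 4374 reads, a change of 0.46 (0.40 to 0.52). PSMB9 was therefore higher in Ramos640 and the others were not. With the GC trend removed, PSMB8 changed by -0.23 and PSMB10 by -0.26.

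To compare the catalytic subunits as RNA, the reads of each immunoproteasome subunit were set against those of the constitutive subunit it replaces. This ratio does not depend on the scaling of the libraries, and it does not measure the protein built into proteasomes. PSMB8 over PSMB5 changed by -0.35 on the log2 scale in Ramos640 (-0.41 to -0.28). PSMB10 over PSMB7 changed by -0.24 (-0.33 to -0.15), by -0.35 against the summed constitutive reads and by -0.39 with the GC trend removed. PSMB9 over PSMB6 changed by -0.098 (-0.19 to -0.0086), an interval that ends just below 0. Summed over the 3 pairs, the immunoproteasome subunits had 21199 reads in Ramos against 15873 of their constitutive counterparts, and 16733 against 15121 in Ramos640, so the ratio in Ramos640 was 0.829 times that in Ramos (0.804 to 0.854). The normalized read counts of all 3 constitutive subunits were higher in Ramos640, and those of PSMB8 and PSMB10 were not. The PSMB9 ratio did not keep its sign, since it was 0.15 against the summed constitutive reads and 0.065 after removal of the GC trend.

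**Figure D2:**
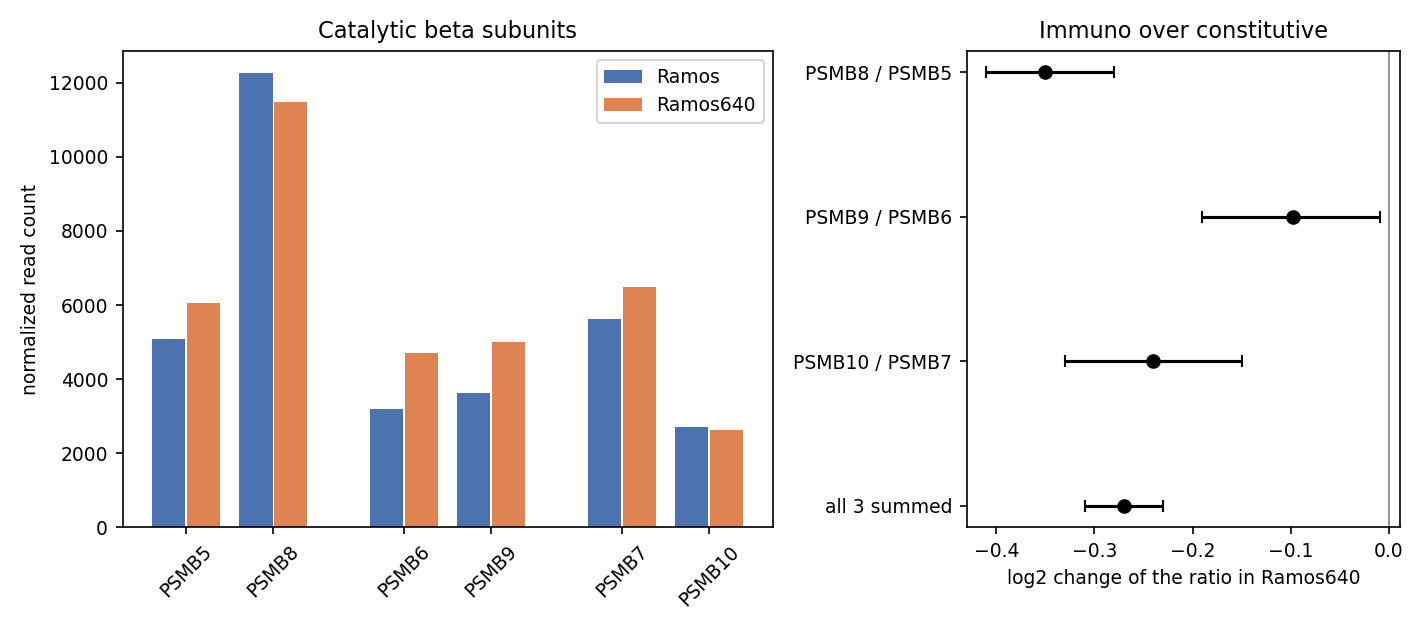
Left, normalized read counts of the catalytic beta subunits in Ramos and Ramos640 (bars, 1 library each), with each constitutive subunit beside the immunoproteasome subunit that replaces it. Right, the log2 change of each ratio in Ramos640 with its exact 95% counting interval; all points lie below 0, from -0.35 for PSMB8 over PSMB5 to -0.098 for PSMB9 over PSMB6.

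The level of the subunits relative to each other depended on the transcript length used. With the canonical transcripts, PSMB8 had 2.24 times the level of PSMB5 per length in Ramos and 1.76 times in Ramos640. With the union of all exons these ratios were 1.07 and 0.844. PSMB10 was below PSMB7 by canonical transcripts (0.483 and 0.409), and PSMB9 was slightly below PSMB6 (0.918 and 0.857). With the union of all exons, PSMB9 over PSMB6 was lower, at 0.491 in Ramos and 0.459 in Ramos640. PSMB10 over PSMB7 was then 0.527 and 0.446.

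PSMB8 (chr6:32808494-32812456) and PSMB9 (chr6:32811913-32827628) lie in the MHC class II region beside TAP1 and TAP2, whose products carry the peptides into the endoplasmic reticulum. The annotated span of PSMB9 overlaps that of TAP1 over 8608 bases and that of PSMB8 over 544 bases, both on the opposite strand. Overlap of their exons was not examined. TAP1 had 3357 reads in Ramos and 3332 in Ramos640 (0.37), and TAP2 had 8053 and 7589 (0.30). PSMB9, TAP1 and TAP2 were thus higher in Ramos640 within the fold, and PSMB8 was not.

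The 6 ATPases of the regulatory particle had a median log2 fold change of 0.18. PSMC3 was the highest, with 8466 reads in Ramos and 9033 in Ramos640 and a change of 0.47 (0.43 to 0.52). PSMC4 (0.42), PSMC2 (0.21) and PSMC5 (0.15) were also positive. PSMC1 was the lowest, with 1143 and 624 reads and a change of -0.49 (-0.64 to -0.35), and PSMC6 followed with 1469 and 948 reads and -0.25. These lower values belong to the ATPases with the largest share of reads on pseudogenes, which is described with the pseudogenes. PSMC2 overlaps PMPCB on the same strand over 3249 bases, and PSMC5 overlaps FTSJ3 on the opposite strand over 2861 bases. Spans on opposite strands also overlap for PSMC1 and C14orf102, PSME3 and BECN1, PSMG2 and CEP76, and PSMG4 and SLC22A23, and overlap of their exons was not examined.

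The 11 non-ATPase subunits had a median of 0.17, with 8 positive and 3 negative. PSMD13, a subunit of the lid, was past the fold, with 5966 reads in Ramos and 7023 in Ramos640. Its log2 fold change was 0.62 (0.57 to 0.67), or 1.53-fold, so that the interval includes values inside the fold. Scaled to total counts it changed by 0.54, inside the fold, and with the GC trend removed by 0.58, just inside it. PSMD3 (0.38), PSMD8 (0.33) and PSMD7 (0.29), also in the lid, were higher within the fold. The lid deubiquitinase PSMD14 changed by 0.037 and the ubiquitin receptor PSMD4 by 0.17. PSMD2, a large scaffold of the base, was the lowest, with 14632 and 9777 reads and a change of -0.20 (-0.24 to -0.16). The others were PSMD11 (0.23), PSMD1 (0.046), PSMD6 (-0.026) and PSMD12 (-0.17).

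Among the 7 assembly factors, the median was 0.010. PSMD9, a chaperone of the ATPase ring, had 2639 reads in Ramos and 3395 in Ramos640, and its log2 change was 0.74 (0.67 to 0.82) or 1.68-fold, the largest among the 47 proteasome genes. It stayed past the fold under every scaling, pseudocount and GC setting tried. The other chaperones of the ATPase ring, PSMD5 (0.11) and PSMD10 (-0.092), were within the fold. PSMG1 (0.15) and PSMG2 form a heterodimer that helps build the alpha ring, and PSMG2 was the lowest of the group with 1795 and 1130 reads and -0.29 (-0.40 to -0.18). PSMG3 (0.010) and PSMG4 (-0.0080), partners in a second alpha-ring chaperone, hardly differed. PSMD9 lies on chr12:122326638-122356203, and the next gene on the same strand, WDR66, begins after 294 bases. WDR66 had 545 reads in Ramos and 1274 in Ramos640, and its change was 1.60 (1.46 to 1.75), and its part in the PSMD9 count was not tested.

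The activators and the inhibitor were the role group with the highest median, 0.46, and all 5 genes were positive with intervals above 0, although PSME4 was at -0.0060 with total counts. PSME1 and PSME2 form the interferon-inducible activator. PSME1 had 23241 reads in Ramos and 22904 in Ramos640 (0.36), and its level per length of the canonical transcript was the highest of all proteasome genes, at 633 and 769 RPKM. PSME2 had 10186 and 11259 reads, a log2 fold change of 0.53 (0.49 to 0.56). PSME3, the nuclear activator, had 13545 and 14267 reads (0.46), and PSMF1, which inhibits the core particle in vitro, had 4762 and 5188 reads (0.50). PSME4, a large activator of the nucleus, was the lowest with 3382 and 2734 reads and 0.074 (0.00098 to 0.15). No gene of the group was past the fold alone. PSME2 was just past it at 0.59 (0.56 to 0.62) once reads of its pseudogenes were added, with an interval that includes values inside the fold.

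Pseudogene rows held 5.42% of the reads of all 91 rows in Ramos and 5.40% in Ramos640, but these reads were concentrated on the copies of a few genes. Pseudogenes held 72.9% of the reads of PSMC1 and its copies in Ramos and 79.5% in Ramos640. For PSMC6 the shares were 53.4% and 58.8%, for PSME2 34.1% and 37.0%, for PSMA6 27.3% and 31.9%, and for PSMD2 15.7% and 12.5%. These were the 5 of 15 genes with pseudogene rows whose share exceeded 10%. How the counting treated reads that fit several places is not given in the sources used here, so a gene and its near-identical copies are uncertain as separate rows. The copies differed in how much exact sequence they shared with the gene. Of all 50-base stretches of the gene's coding sequence, PSMC1P1 held 96.1% without a difference and PSMA6P1 30.5%. The values were 14.8% for PSME2P2, 9.43% for PSME2P1, 3.14% for PSME2P6, 2.99% for PSME2P3 and 0% for PSME2P4.

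Summing each gene with its pseudogenes moved the lowest ATPases close to the Ramos level. PSMC1 changed by -0.49 alone and by -0.086 (-0.15 to -0.019) when summed. Nearly all of the added reads were those of PSMC1P1, shown above to differ from the gene at 1 base, with 2920 reads in Ramos and 2259 in Ramos640 and a change of 0.011. PSMC6 changed by -0.25 alone and by -0.071 (-0.15 to 0.0072) when summed, with 1629 and 1306 reads on PSMC6P1. PSMA6 changed less, from -0.48 to -0.38 (-0.42 to -0.35), and PSMD2 went from -0.20 to -0.25.

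**Figure D3:**
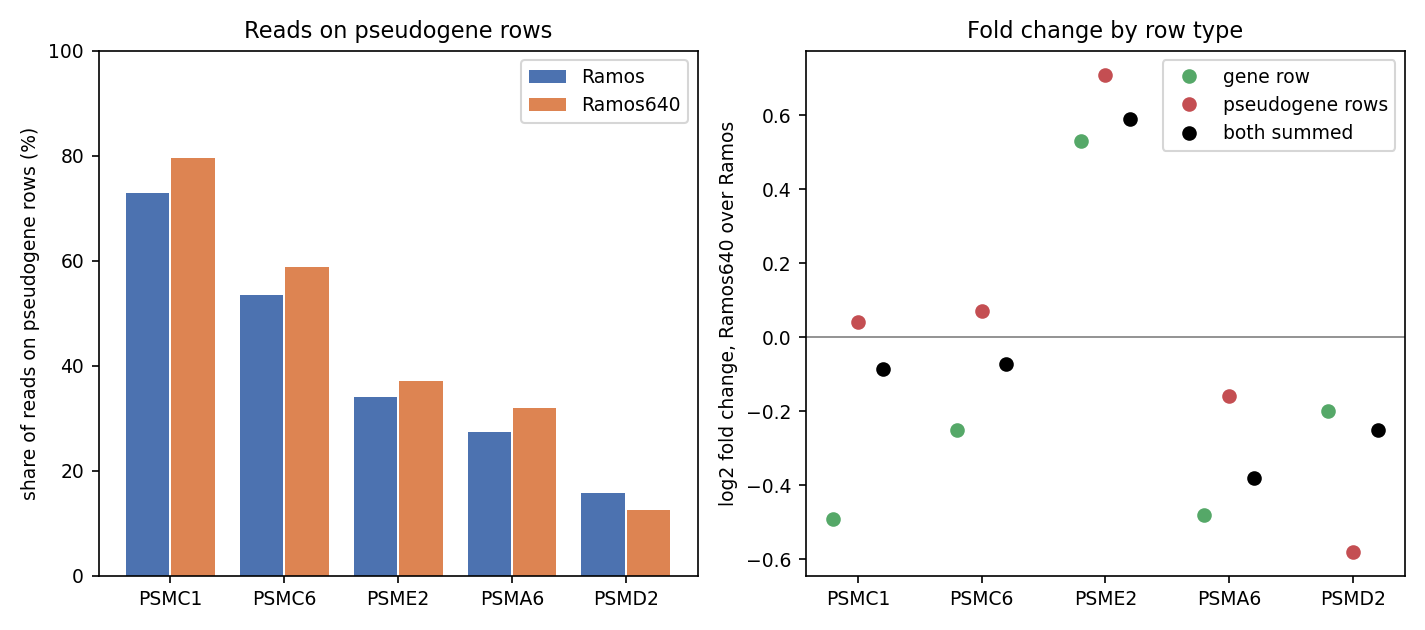
Left, the share of reads on pseudogene rows (percent of the reads of the gene and its pseudogenes) for the 5 genes where it exceeded 10%, in Ramos and Ramos640. Right, the log2 fold change of the gene row, of the summed pseudogene rows and of both together; PSMC1 and PSMC6 lie nearer to 0 when summed, and PSME2 is higher on the pseudogene rows than on the gene row.

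Of the pseudogene rows, 33 of 41 had at least 10 reads, with a median log2 fold change of 0.30. Past the fold, 7 were higher and 4 lower. With the proteasome genes this made 9 of 82 rows higher (11.0%) and 5 lower (6.10%), where 14.6% of all 18778 genes tested were past the fold and higher and 17.3% were lower. The higher rows included most copies of PSME2. PSME2P6 had 424 reads in Ramos and 762 in Ramos640, and its change was 1.22 (1.05 to 1.40). PSME2P3 had 674 and 1049 reads and a change of 1.02 (0.88 to 1.16), PSME2P1 had 1939 and 2351 and 0.66 (0.57 to 0.75), and PSME2P4, which lies within TBC1D1 on the opposite strand, had 25 and 52 and 1.40 (0.72 to 2.19). PSME2P2 was inside the fold with 2199 and 2380 reads and 0.49 (0.41 to 0.58). The other higher rows were PSMC1P10, with 12 and 20 reads (1.05, 0.015 to 2.28), and PSMC1P11 and PSMC1P12, each with 8 and 13 reads and an interval that holds 0 (0.98, -0.30 to 2.56). PSMA6P2 was the lowest row, with 379 and 85 reads and a change of -1.77 (-2.13 to -1.43), and PSMD8P1 had 145 and 72 reads and -0.62 (-1.06 to -0.21). PSMC1P4, with 21 and 10 reads (-0.64, -1.94 to 0.46), and PSMD10P1, which lies within ADNP, with 10 and 4 (-0.81, -3.07 to 0.85), were past the fold with intervals that hold 0.

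Identity to the gene was higher among the pseudogenes with the most reads. The 35 pseudogenes that could be located on GRCh37 were 86.2% to 99.9% identical to the coding sequence of their gene. Of these, the 6 with at least 1000 reads in both libraries together had a median identity of 96.5%, and the 23 with fewer than 100 reads had a median of 91.9%. PSMD2P1 and PSMC6P1 also had at least 1000 reads but could not be located, so their identity is not known. PSMA6P2 was 91.9% identical, and PSME2P1, PSME2P2, PSME2P3 and PSME2P6 were 96.2%, 96.4%, 93.7% and 96.6%, the last over 327 bases.

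Log2 fold changes followed the GC content of the longest annotated transcript in these genes as in the whole table. Which transcripts the cells expressed was not examined. Across the 47 genes, Spearman's rho was 0.444, and across the 10245 genes in the table that code for protein and reached 100 reads it was 0.419 (genes share the libraries and are not independent replicates). The 15 genes of lowest GC content (32.0% to 41.9%), among them most alpha subunits, had a median change of -0.11, and the 15 of highest GC content (52.4% to 61.7%) had one of 0.17. Once the trend of all protein-coding genes was removed, these medians were 0.13 and 0.028 and rho was -0.0964. The median of the alpha subunits moved from -0.10 to 0.046 and that of the activators from 0.46 to 0.41. With the trend removed, PSMA5 (0.62) and PSMD9 (0.65) were past the fold and higher and PSMA8 (-0.76) was past it and lower. The sign changed for PSMB1 (0.021), PSMB3 (-0.027), PSMC6 (0.017), PSMD6 (0.27), PSMD10 (0.13), PSMD12 (0.14) and PSMG3 (-0.19), as for PSMA2 and PSMA4 above. PSMD14 changed by 0.39 and PSMG2 by -0.035 once the trend was removed. What caused the trend was not tested.

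**Figure D4:**
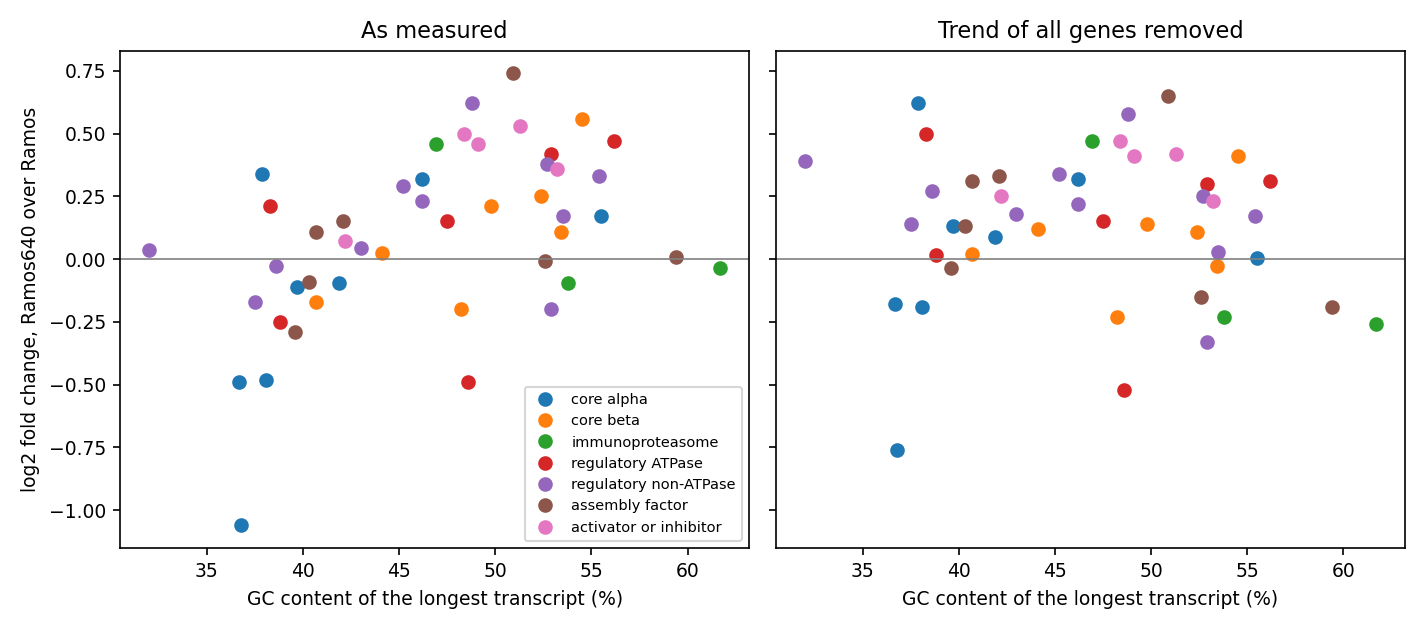
Log2 fold change of Ramos640 over Ramos (vertical axis) against the GC content of the longest transcript (percent, horizontal axis) for the 47 proteasome genes, colored by role, as measured (left) and after the running median of all protein-coding genes was removed (right). The points climb from left to right in the left panel (rho 0.444) and do not in the right panel (rho -0.0964).

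Proteasome genes are known to be induced together by the transcription factor NFE2L1, which binds the antioxidant response element (ARE). RefSeq promoter sequences (GRCh38.p14, 250 bases before to 50 after the start) matched 42 of the 48 genes. The ARE core TGACNNNGC was found on either strand in 13 of 42 (31.0%) and in 13.6% of 27305 promoters. The GC box GGGCGG was in 66.7% and 44.6% of promoters, and CCAAT in 45.2% and 35.7%. A match is a description of letters, not a binding site. The promoters of PSMD9 (chr12:122326446-122326745, plus strand) and PSME2 (chr14:24615770-24616069, minus strand) are shown. They were chosen because PSMD9 had the highest log2 fold change and PSME2 was just past the fold with its pseudogenes. The matched promoters of PSMD13, past the fold and higher alone, and PSMA8, past it and lower, held 0 ARE cores and are not shown. Coordinates are those of the identical sequence on GRCh37, and capitals mark the ARE core, which occurs 2 times for PSMD9 and 1 time for PSME2.
PSMD9: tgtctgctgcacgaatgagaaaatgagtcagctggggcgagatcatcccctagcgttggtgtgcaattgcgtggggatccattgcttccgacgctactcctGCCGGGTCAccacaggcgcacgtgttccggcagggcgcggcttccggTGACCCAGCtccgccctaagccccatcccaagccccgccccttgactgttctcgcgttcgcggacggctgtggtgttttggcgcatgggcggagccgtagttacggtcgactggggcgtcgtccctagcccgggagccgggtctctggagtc
PSME2: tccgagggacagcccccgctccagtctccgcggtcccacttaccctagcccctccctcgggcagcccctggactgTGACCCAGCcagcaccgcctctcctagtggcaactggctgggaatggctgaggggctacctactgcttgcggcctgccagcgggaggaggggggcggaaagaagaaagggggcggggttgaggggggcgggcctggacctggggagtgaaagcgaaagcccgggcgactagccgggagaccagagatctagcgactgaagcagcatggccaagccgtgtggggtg
The 13 genes with the ARE core had a median log2 fold change of 0.15 (range -0.29 to 0.74, 11 positive). The 28 other genes with a matched promoter and reads had a median of 0.0075 (range -1.06 to 0.62, 14 positive). These values still hold the trend over GC content, and the split was not repeated with that trend removed. A part of NFE2L1 in these values was not tested.

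Known regulators of proteasome transcription were read at moderate levels and none of 8 was past the fold (7 positive, median 0.17). NLRC5, the activator of MHC class I genes, was the highest, with 2504 reads in Ramos and 2590 in Ramos640 (0.43), NFE2L1 had 7488 and 7370 (0.36), and NFE2L2 was the lowest with 2279 and 1651 (-0.084). None of 15 genes of ubiquitin supply and delivery was past the fold (10 positive, median 0.032). UBA6, an enzyme that activates ubiquitin, was the lowest with 1331 reads in Ramos and 771 in Ramos640 (-0.41). For comparison with both lists, 9.94% of all 13677 genes with at least 100 reads were past the fold and higher and 12.6% lower. Of these 13677 genes, 6664 were positive.

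Proteasome genes named by other symbols had lower values. Of 13 such genes, 3 were positive and 10 negative, 0 were past the fold and higher and 1 was past it and lower, with a median of -0.23. Among all genes with at least 100 reads, 9.94% were past the fold and higher and 12.6% were past it and lower. TXNL1, a thioredoxin-like protein bound to the regulatory particle, had 5604 reads in Ramos and 1283 in Ramos640, and its change was -1.75. ADRM1, a ubiquitin receptor, was the highest with 3621 and 3239 reads (0.22). The small subunit SHFM1 changed by -0.46 and the core chaperone POMP by -0.37. With the GC trend removed the median was 0.0013 without SHFM1, for which no GC content was available. TXNL1, the lowest, then changed by -1.46.

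The labelled cell type was examined in its markers. All 7 B-cell markers had reads in both libraries (1904 to 82890). MS4A1, which encodes CD20, had 9654 reads in Ramos and 1904 in Ramos640 (-1.96), PAX5 was also past the fold and lower (-0.80), and CD79B (0.64) and CD74 (0.63) were past it and higher. The summed reads of 4 T-cell markers were 6 in Ramos and 32 in Ramos640 (31 of them CD3E, with CD2 and CD3D at 0), those of 4 monocyte markers 5 and 15, and those of 4 epithelial markers 38 and 15.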

How the data were processed

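RNA-seq was performed on Ramos and Ramos640 cells (1 library per line). The authors removed adaptor sequences, aligned the Ion Proton reads to GRCh37 with MapSplice and deposited whole-number read counts per gene without normalization. The counting program, its annotation, use of strand and treatment of reads that fit several genes are not given in the sources used here. The members and gene lists were chosen with earlier results of these data known. Every member could be named, with full intervals for PSMB5 to PSMB10, members past the fold and the extremes of each role. Some results that these choices select are not reported here.

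Size factors, a pseudocount of 1, a minimum of 10 reads in both libraries together and a 1.5-fold limit were applied to all 37122 rows (18778 genes tested). Alternatives were TMM factors (edgeR 4.0.16), total counts, pseudocounts of 0.1 and 10, minimums of 1 and 100 reads, a fold of 2, intervals wholly past the fold, and removal of the GC trend (running median over 501 genes coding for protein, each with 100 reads or more). The quasi-likelihood test of edgeR and DESeq2 need replicates for a dispersion, so no test was run. GENCODE v44 lifted to GRCh37 gave positions, GC content and lengths for 85 of 91 members, and 84.2% of tested genes. Pseudogenes were aligned to the canonical coding sequence with Biopython 1.88. The intervals and trend removal were checked on simulated counts. Python 3.11.15, scipy 1.17.1 and R 4.3.3 were used.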

Additional observations from a re-analysis of the deposited data

How the results depend on the processing

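Of the counts of all 82 rows, 9 higher and 5 lower, those of higher rows were 5 with at least 100 reads, 2 without the antisense, pseudogene and PSMC3IP rows, 4 at a fold of 2, 4 with the whole interval past the fold, and 3 with pseudogene reads added to the gene. Those of lower rows were 3, 1, 2, 2 and 1 under the same settings, and 2 with a pseudocount of 10. Under the other settings the counts were within 1.5 times (7 to 13 higher, 4 to 6 lower). The median of the members stayed positive, from 0.071 with total counts to 0.17. The change of PSMB9 over PSMB6 was 0.15 against the summed reads of PSMB5, PSMB6 and PSMB7 and 0.065 with the GC trend removed. That of PSMB10 over PSMB7 was -0.35 and -0.39 under these settings, and that of PSMB8 over PSMB5 ranged from -0.41 to -0.34. Of the single members, 13 of 66 changed sign with the GC trend removed, the cause of which was not tested. Total counts move every gene by nearly the same amount, so the 8 of 69 that changed sign were those closest above 0. Adding pseudogene reads was chosen after seeing the data. Leaving out a replicate was not possible, and no paired analysis was possible because there is 1 library per line. Depth limits mainly the pseudogene rows with few reads, and variation between cultures was not measured.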
